A study of Homo sapiens with 12 samples.

Results

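The TNF superfamily comprises the ligands and receptors through which TNF, lymphotoxins, FAS ligand and their relatives act on cells. Members were taken by gene symbol, as every symbol of the TNFSF and TNFRSF nomenclature in the table together with TNF, LTA, LTB, LTBR, FAS, FASLG, CD40, CD27 and CD70, and 1 receptor of this nomenclature is not reported here. The rule found 40 members among 59276 genes, of which 16 are ligands and the others receptors. Most ligands are trimers anchored in the membrane, and they engage receptors on neighbouring cells. Receptors with a death domain recruit TRADD or FADD and can activate caspases, whereas the other signalling receptors bind TRAF adaptors and feed NF-kB and MAP kinases, and decoy receptors bind a ligand without signalling. In plasma cells and multiple myeloma (MM) the ligands BAFF and APRIL and their receptors are known for supporting survival, while FAS and the TRAIL receptors are known for triggering apoptosis.

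RNA was sequenced from 12 samples of JJN3, a human MM cell line, in 4 groups of 3 replicates. Wild-type JJN3 cells received the vehicle DMSO or 10 µM MS023, an inhibitor of the type I protein arginine methyltransferases, for 3 days. The other groups were JJN3 cells that stably expressed Cas9 with an mCherry reporter and had been sorted, transduced with a guide vector and selected in puromycin. They carried a doxycycline-inducible control guide (isgCtrl) or 1 guide against PRMT1 (iPRMT1_1, here PRMT1-KO) and were induced for 3 days, so that the control cells also held Cas9, a guide and doxycycline. The labels do not say whether replicates were separate cultures, and the study's methods speak of independent experiments without naming the sequencing, so p-values measure the spread between these samples, which may be technical. The values are log2(TPM+1), where TPM is the relative abundance of transcripts corrected for their length, and the read depth behind a value cannot be read from them. All values below are log2(TPM+1) unless TPM is named, replicates are listed in the order 1, 2 and 3, and ± is the SD of 3 replicates for a level and the SE for a difference.

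Each sample had between 20988 and 22241 genes above 0, and replicates of a group correlated with r between 0.993 and 0.996 across genes. PRMT1 itself, the targeted gene, had a mean of 859.8 TPM in isgCtrl and 304 TPM in PRMT1-KO, a difference of -1.50 ± 0.045 (limma, Benjamini-Hochberg adjusted p = 0.000720), and 653 and 673 TPM in DMSO and MS023. The transcript was lower in every PRMT1-KO sample and still present there. All 10 plasma cell markers had a mean above 1 in DMSO and MS023 cells, 9 did in isgCtrl and 7 in PRMT1-KO. MZB1, a plasma cell chaperone, stood at 6.73 in DMSO cells but at 1.58 with isgCtrl and 0.96 with PRMT1-KO, and SLAMF7, a myeloma surface antigen, at 3.36, 0.44 and 0.54. By the criteria given below, 5 of the 10, including both of these, were called lower in isgCtrl than in DMSO. SLAMF7 was tested there only through its DMSO mean, the group in which it was high. IRF4 was called higher, at 6.58 in DMSO and 7.31 in isgCtrl (limma adjusted p = 0.00135). Among all genes tested 6.7% were called lower and 7.23% higher. PRDM1 (4.59 and 4.99) and POU2AF1 (6.99 and 7.43) also stood higher in isgCtrl without a call. B cell markers other than CD79B, and T cell, NK cell and myeloid markers other than GZMB and CD68, stayed at a mean of 1 or below in every group.

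A gene was tested in a comparison when its mean exceeded 1 in either group, and it was called when limma gave a Benjamini-Hochberg adjusted p below 0.05 together with a log2 fold change beyond 0.48 in either direction. Of the 40 members, 19 exceeded a mean of 1 in at least 1 group, 18 did not, and TNFRSF10C, TNFRSF6B and TNFSF18 were listed at 0 in every sample. Exons of TNFRSF10C and TNFRSF6B overlap other genes on the same strand, and how reads were divided among them was not tested. RTEL1-TNFRSF6B, which overlaps TNFRSF6B, had a mean of 1.20 in DMSO, 1.05 with MS023, 1.36 in isgCtrl and 1.13 in PRMT1-KO. All 6 death domain receptors were among the 19, as were 8 of 14 TRAF-binding receptors, 4 of 16 ligands and 1 of 4 decoy or regulatory receptors.

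**Figure D1:**
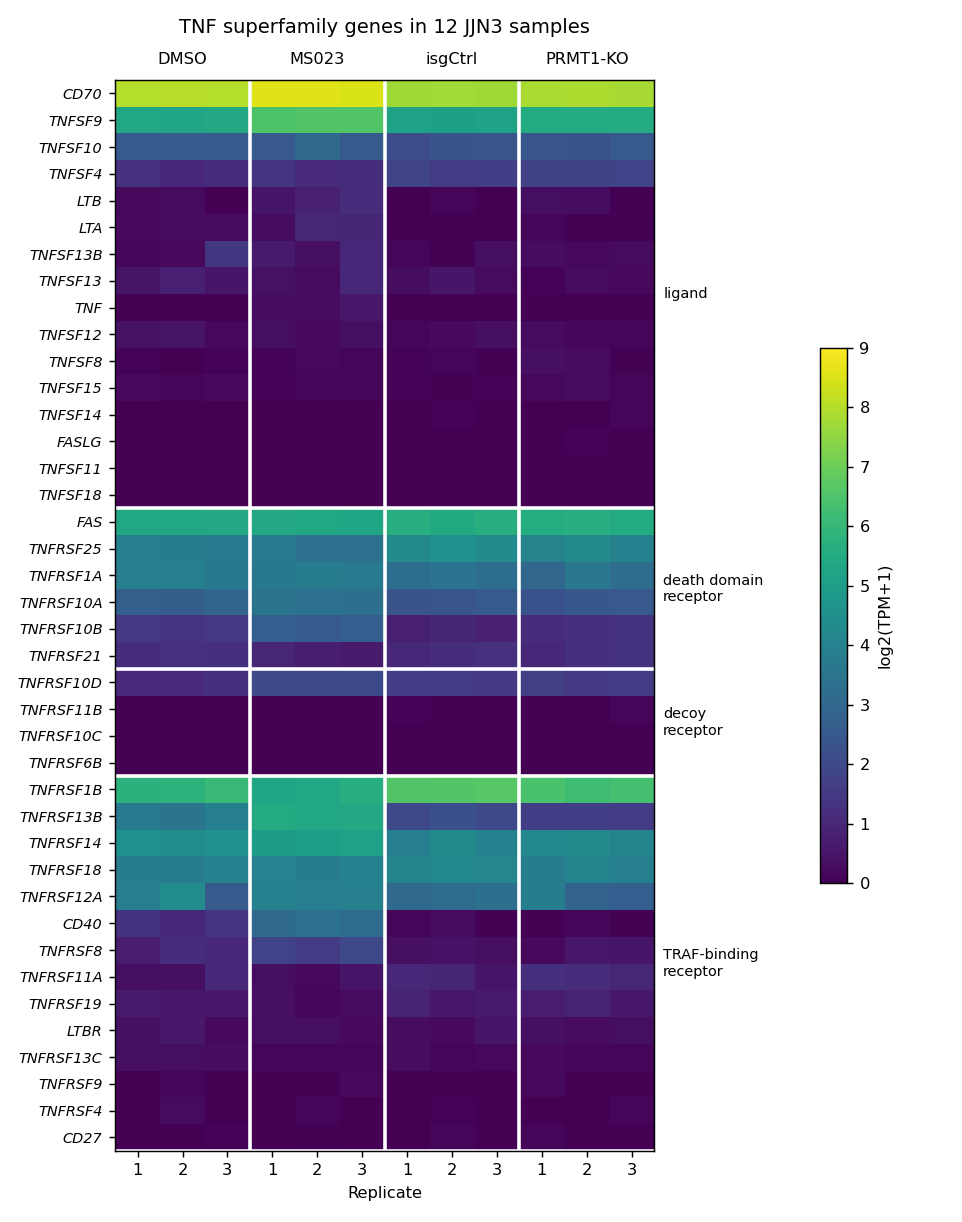
Level of all 40 members in the 12 samples, as log2(TPM+1) on a colour scale from 0 to 9, with genes grouped by role in rows and replicates 1 to 3 of each group in columns. CD70 is the brightest row in every group, the TNFRSF13B and CD40 rows are brighter with MS023 than with DMSO, and most ligand rows are dark throughout.

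For a view of the DNA at the start of the members called with MS023, the 250 bases before the RefSeq start site (GRCh38.p14) are given for the 4 that have an entry and are printed here, in the direction of transcription, with matches to 4 searched elements in capitals. CD40 and CD70 have no entry. The elements were the kappaB consensus of NF-kB, the AP-1 element TGANTCA, the interferon element core, which is a pair of GAAA runs with any 2 bases between them, and the TATA box TATAAA, on both strands.
TNFSF9, chr19:6530776-6531025, plus strand: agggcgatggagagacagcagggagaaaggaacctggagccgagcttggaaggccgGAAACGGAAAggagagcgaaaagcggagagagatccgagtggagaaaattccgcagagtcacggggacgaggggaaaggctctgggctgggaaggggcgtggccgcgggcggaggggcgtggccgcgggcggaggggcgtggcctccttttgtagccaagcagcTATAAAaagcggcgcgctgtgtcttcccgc
TNFRSF13B, chr17:16972119-16972368, minus strand: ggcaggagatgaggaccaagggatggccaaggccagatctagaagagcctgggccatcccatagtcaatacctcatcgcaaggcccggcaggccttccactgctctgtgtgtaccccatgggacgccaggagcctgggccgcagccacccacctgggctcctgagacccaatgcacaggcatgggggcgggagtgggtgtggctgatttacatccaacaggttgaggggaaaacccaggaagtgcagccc
TNFRSF14, chr1:2556121-2556370, plus strand: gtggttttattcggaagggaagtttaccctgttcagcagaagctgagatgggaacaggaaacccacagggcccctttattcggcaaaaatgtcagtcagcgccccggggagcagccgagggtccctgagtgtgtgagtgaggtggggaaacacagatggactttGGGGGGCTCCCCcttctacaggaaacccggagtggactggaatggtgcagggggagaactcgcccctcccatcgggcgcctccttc
TNFRSF8, chr1:12063053-12063302, plus strand: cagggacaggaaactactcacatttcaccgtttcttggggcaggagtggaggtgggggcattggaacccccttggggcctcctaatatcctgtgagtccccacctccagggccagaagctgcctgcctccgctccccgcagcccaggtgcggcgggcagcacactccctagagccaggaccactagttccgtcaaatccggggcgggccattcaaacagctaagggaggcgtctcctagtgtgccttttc
In TNFSF9 the capitals mark an interferon element core from -194 to -185 and a TATA box from -30 to -25, counted back from the base before the start at -1. In TNFRSF14 they mark overlapping matches to the kappaB consensus from -86 to -75, and the TNFRSF14 window lies inside the gene as GENCODE v44 annotates it, which begins upstream of the RefSeq start used here. The TNFRSF13B and TNFRSF8 windows hold none of the 4 elements. Over all 35116 promoters of the table, 9.96% held the kappaB consensus, 6.57% the AP-1 element, 3.02% the interferon core and 10.7% the TATA box. Of 27 members with an entry outside chromosomes 8 and 18, 9 held the kappaB consensus, among them the low or silent LTA, LTB, TNFRSF9 and TNFSF14, and of the 12 that were also tested with MS023 only FAS and TNFRSF14 did. The interferon core was in 5 of the 27 and 3 of the 12, namely TNFSF9 and the uncalled TNFSF10 and TNFRSF1B. The TATA box was in 6 and 3, namely TNFSF9 and the uncalled TNFSF10 and TNFRSF18. The AP-1 element was in 5 and 1, the uncalled FAS. A match describes letters only.

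The first comparison asked how inhibition of type I arginine methyltransferases changed the family. MS023 raised 9 of the 18 members tested and lowered none by the criteria above. Among all 12903 genes tested 30.9% were called, 11.6% as higher and 19.3% as lower. The median difference of the 18 members was 0.44 against -0.11 for all genes tested. The 9 were the ligands TNFSF9 and CD70, the TRAIL receptors TNFRSF10A, TNFRSF10B and TNFRSF10D, and the TRAF-binding receptors CD40, TNFRSF13B, TNFRSF8 and TNFRSF14. At an adjusted p under 0.05 and any fold 11 members passed, beside 48.8% of all genes. The samples of both groups did not overlap for 12 of the 18, beside 59.5% of all genes tested, and exact permutation of 3 against 3 samples cannot give a p below 0.1. Median-ratio scaling shifted the median of all genes to 0.017 and the share of higher calls from 37.6% to 54.6%, with the members still at 9 higher and 0 lower. In bulk RNA, fewer cells with a transcript and less of it per cell cannot be told apart.

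**Figure D2:**
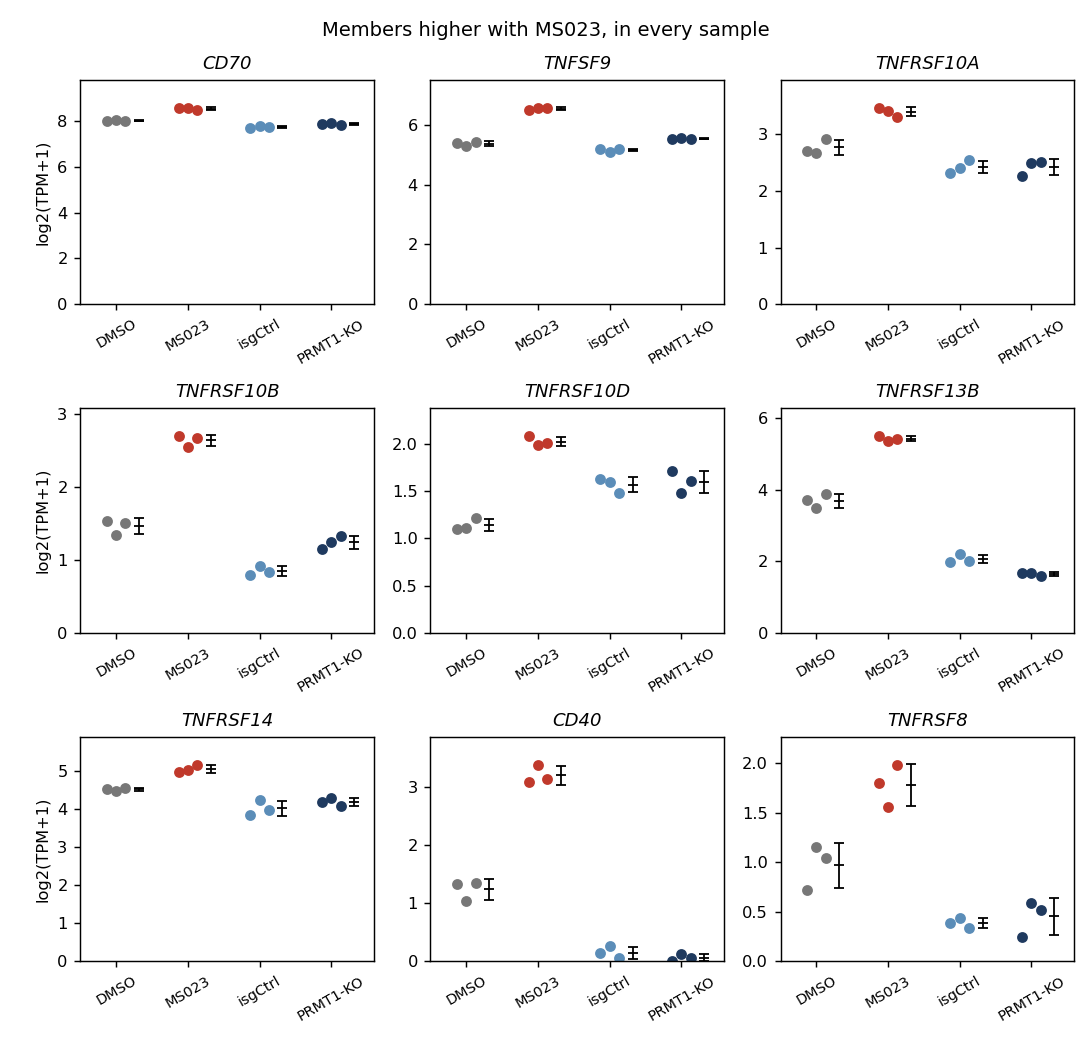
Level of the 9 members called higher with MS023, as log2(TPM+1) on axes that start at 0, with 1 point per sample and the mean and SD (n = 3) beside each group. In each panel the 3 MS023 points lie above the 3 DMSO points, and the PRMT1-KO points do not reach the MS023 points in any panel.

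Among the ligands, CD70, which binds CD27 on lymphocytes, was the most abundant transcript of the 40 members in every group (chr19:6583183-6604103, minus strand, GENCODE v44 on GRCh38). It stood at 7.98, 8.04 and 8.01 in DMSO and 8.57, 8.57 and 8.49 with MS023, or 257 ± 4.93 against 372 ± 12.4 TPM. Every MS023 sample exceeded every DMSO sample, by a mean of 0.53 ± 0.061 (limma, Benjamini-Hochberg adjusted p = 0.00105). Its receptor CD27 did not exceed 0.17 in any sample. TNFSF9, the costimulatory ligand of TNFRSF9 on T cells (chr19:6531026-6535924, plus strand), whose promoter is printed above, measured 5.40, 5.28 and 5.43 in DMSO and 6.50, 6.56 and 6.57 with MS023. The difference was 1.17 ± 0.069 (adjusted p = 0.000126), the mean TPM rose 2.28-fold from 40.5 ± 2.31 to 92.3 ± 2.32, and TNFSF9 moved from rank 4 to rank 2 among the members. TNFRSF9 itself stayed at or below 0.24 in all samples.

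The other 2 tested ligands did not pass the test. TNFSF10, the death ligand TRAIL, measured 2.59, 2.58 and 2.62 in DMSO and 2.53, 3.06 and 2.56 with MS023, a difference of 0.12 (95% interval -0.25 to 0.48) that rests on MS023 replicate 2 and is -0.057 without it. TNFSF4, the OX40 ligand, differed by 0.050 (-0.19 to 0.29). The remaining 12 ligands were at a mean of 1 or below in every group and were not tested. TNF, the founding cytokine, measured 0, 0.062 and 0 in DMSO and 0.29, 0.29 and 0.58 with MS023. LTA, secreted lymphotoxin, measured 0.24, 0.28 and 0.26 and 0.30, 0.98 and 0.92, and LTB, its membrane partner, 0.19, 0.27 and 0 and 0.51, 0.81 and 1.14. These neighbours on chromosome 6 were higher in every MS023 sample than in any DMSO sample, at levels of at most 1.20 TPM. The BAFF gene TNFSF13B reached 1.46 in DMSO replicate 3 and at most 1.00 elsewhere, and the APRIL gene TNFSF13 reached 1.03 in MS023 replicate 3. TNFSF12, TNFSF15 and TNFSF8 were above 0 in all 12 samples with highest values of 0.47, 0.29 and 0.35, whereas FASLG, TNFSF11 and TNFSF14 did not exceed 0.17.

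TNFRSF10B and TNFRSF10A, the receptors through which TRAIL triggers apoptosis, were both upregulated. TNFRSF10B (chr8:23020133-23069031, minus strand) measured 1.54, 1.34 and 1.51 in DMSO and 2.70, 2.56 and 2.67 with MS023, a difference of 1.18 ± 0.083 (limma adjusted p = 0.000217) and a 2.98-fold higher mean TPM. TNFRSF10A (chr8:23190452-23225102, minus strand) measured 2.71, 2.67 and 2.92 and 3.46, 3.41 and 3.31, a difference of 0.63 ± 0.091 (adjusted p = 0.00256). The groups were fully separated for both. TNFRSF10D, the TRAIL decoy receptor with an incomplete death domain (chr8:23135588-23164027, minus strand), rose beside them, from 1.10, 1.11 and 1.22 to 2.08, 1.98 and 2.01, by 0.88 ± 0.067 (adjusted p = 0.000272). These genes and the decoy TNFRSF10C, listed at 0, lie together within 204970 bp of chromosome 8, so 3 of the 4 genes there were called. They are related in sequence, and how the quantification divided shared reads among them was not tested. TNFRSF10B exons overlap RHOBTB2 and TNFRSF10A exons overlap TNFRSF10A-AS1 on the opposite strand, and use of strand is not given in the sources used here. RHOBTB2 differed by -0.077 and TNFRSF10A-AS1 by 0.66 (limma adjusted p = 0.307 and 0.0568).

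FAS, the receptor of FAS ligand and the most abundant death domain receptor, measured 5.41, 5.37 and 5.43 in DMSO and 5.42, 5.41 and 5.32 with MS023. The groups overlapped, and the difference of -0.020 (95% interval -0.17 to 0.13) turned positive with median-ratio scaling (0.12) and quantile normalization (0.070). TNFRSF1A, the TNF receptor with a death domain, differed by -0.083 (-0.29 to 0.13), and its sign turned under the same scalings to 0.055 and 0.064. TNFRSF21, known from neurons, measured 1.18, 1.28 and 1.24 in DMSO and 0.95, 0.74 and 0.65 with MS023, and its -0.45 (limma adjusted p = 0.0095) stayed under the fold threshold, which it crossed without MS023 replicate 1 (-0.54) and with a pseudocount of 0.1 (-0.84, adjusted p = 0.0117). It was tested only through its DMSO mean. TNFRSF25, the receptor of TNFSF15, was at 3.90, 3.78 and 3.71 in DMSO and 3.69, 3.39 and 3.37 with MS023, a difference of -0.31 that did not pass (adjusted p = 0.0569). The overlapping opposite-strand gene ESPN fell by 2.02 in the same samples, from 2.87 to 0.85. ACTA2, which overlaps FAS on the opposite strand, fell by 1.34, from 2.16 to 0.82. Both were tested only through their DMSO means. STAMBPL1, which overlaps FAS on the same strand, stood at 3.05 in DMSO and 3.16 with MS023 (limma adjusted p = 0.516). The part of these overlaps in the receptor values was not tested.

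The TRAF-binding receptors held the largest changes. CD40, the costimulatory receptor of B cells for CD40LG (chr20:46118271-46129863, plus strand), measured 1.32, 1.03 and 1.34 in DMSO and 3.08, 3.38 and 3.13 with MS023. The lowest MS023 sample stood far above the highest DMSO sample, the difference was 1.96 ± 0.12 (limma adjusted p = 0.000146), and the mean rose from 1.36 ± 0.274 to 8.19 ± 1.04 TPM. CD40LG was listed at 0 in every group. TNFRSF13B, the BAFF and APRIL receptor TACI (chr17:16929816-16972118, minus strand), measured 3.71, 3.48 and 3.87 and 5.50, 5.38 and 5.42. It rose by 1.74 ± 0.11 (adjusted p = 0.000157), 3.52-fold in mean TPM, and passed from rank 9 to rank 4, level with TNFRSF1B and FAS within their replicate ranges. The related BAFF receptor TNFRSF13C was at 0.34, 0.33 and 0.29 in DMSO and 0.13, 0.14 and 0.13 with MS023, too low for the test. TBC1D27P, a pseudogene that shares exon sequence with the TNFRSF13B locus on the same strand, was also called higher (0.68, limma adjusted p = 0.0142). It stood at 0.67 in DMSO and 1.35 with MS023, so it was tested only through its MS023 mean.

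TNFRSF8, the CD30 antigen of activated lymphocytes (chr1:12063303-12144207, plus strand), was called at 0.72, 1.15 and 1.05 in DMSO against 1.80, 1.56 and 1.98 with MS023, a difference of 0.81 ± 0.16 (limma adjusted p = 0.00725). Its DMSO mean lay under 1, so it was tested only through the group in which it was high. TNFRSF14, the receptor of TNFSF14 and a partner of the inhibitory receptor BTLA (chr1:2555639-2565382, plus strand), measured 4.53, 4.46 and 4.54 and 4.96, 5.02 and 5.16, and rose by 0.54 ± 0.075 (adjusted p = 0.00218). Both groups of samples stood apart in each of these genes. TNFRSF14 exons overlap TNFRSF14-AS1, which differed by 0.35 (adjusted p = 0.405).

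TNFRSF1B, the TNF receptor without a death domain and a chromosome 1 neighbour of TNFRSF8, was not called. It measured 5.78, 5.81 and 6.12 in DMSO and 5.32, 5.41 and 5.64 with MS023, a difference of -0.45 (limma adjusted p = 0.03) under the fold threshold, and it crossed that threshold when DMSO replicate 1 (-0.51) or MS023 replicate 3 (-0.54) was left out. TNFRSF18, the GITR receptor, differed by 0.069 (95% interval -0.14 to 0.28). TNFRSF12A, the receptor of TNFSF12, varied widely in DMSO at 3.84, 4.34 and 2.54 beside 3.96, 3.89 and 3.93 with MS023, and its difference of 0.35 became -0.16 without DMSO replicate 3. Among the untested receptors TNFRSF19 was lower in every MS023 sample (0.36, 0.16 and 0.28) than in DMSO (0.66, 0.58 and 0.60). TNFRSF11A, the receptor of TNFSF11, reached 1.03 in DMSO replicate 3 and at most 0.52 in the other DMSO and MS023 samples, while LTBR did not exceed 0.61 and TNFRSF4 and the soluble decoy TNFRSF11B did not exceed 0.26.

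**Figure D3:**
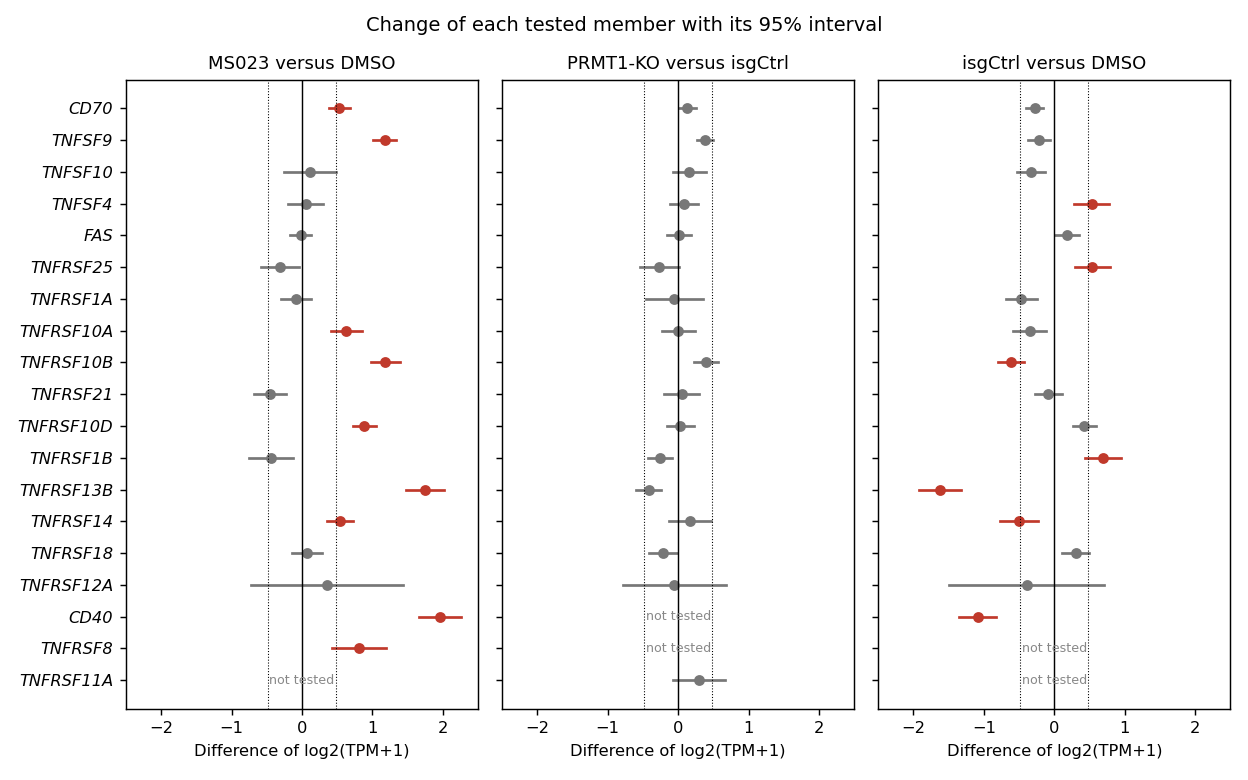
Difference of log2(TPM+1) for each member tested in at least 1 comparison, with its 95% interval from limma, in 3 panels for MS023 versus DMSO, PRMT1-KO versus isgCtrl and isgCtrl versus DMSO. Red marks called members and dotted lines the fold threshold of 0.48, and the PRMT1-KO panel holds no red point while CD40 and TNFRSF13B lie far right in the MS023 panel and far left in the isgCtrl panel.

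The second comparison asked whether loss of PRMT1 changed the same family. None of the 17 members tested was called in PRMT1-KO against isgCtrl, where 0.781% of all 12285 genes tested were called. At an unadjusted p under 0.05 there were 6 members, beside 18.6% of all genes, and the same number did not overlap between the groups, beside 26.7%. The median difference was 0.032 for the members and -0.038 for all genes tested. With an adjusted p under 0.05 at any fold, which 1.28% of all genes reached, TNFSF9 was the 1 member, at 5.18, 5.10 and 5.18 in isgCtrl and 5.54, 5.54 and 5.52 in PRMT1-KO. All PRMT1-KO samples were higher, by 0.38 ± 0.048 (limma adjusted p = 0.0352).

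Members near the threshold pointed in both directions. TNFRSF10B measured 0.79, 0.91 and 0.84 in isgCtrl and 1.15, 1.25 and 1.33 in PRMT1-KO, a difference of 0.40 ± 0.067 (limma adjusted p = 0.0637) without overlap, and it was tested only through its PRMT1-KO mean. TNFRSF13B stood at 2.07 ± 0.12 in isgCtrl and 1.64 ± 0.044 in PRMT1-KO, a difference of -0.42 ± 0.074 (adjusted p = 0.0698), with every PRMT1-KO sample below every isgCtrl sample. CD70 differed by 0.13, TNFRSF1B by -0.26 and TNFRSF18 by -0.22, each without overlap and with limma adjusted p of 0.243, 0.156 and 0.234. For TNFRSF10A the 95% interval ran from -0.23 to 0.24, for FAS from -0.16 to 0.18 and for TNFRSF10D from -0.17 to 0.23, which holds differences under the fold threshold only. The intervals of TNFRSF12A (-0.79 to 0.68), TNFRSF11A (-0.077 to 0.66) and TNFRSF25 (-0.54 to 0.0052) were too wide for that. Those of TNFRSF10B (0.23 to 0.56), TNFRSF13B (-0.60 to -0.24) and TNFSF9 (0.27 to 0.50) also reached beyond the fold threshold. TNFRSF11A was tested only through its PRMT1-KO mean (0.82 in isgCtrl, 1.11 in PRMT1-KO). CD40 and TNFRSF8 were not tested, at 0.14, 0.26 and 0.049 and 0.38, 0.44 and 0.34 in isgCtrl and 0, 0.13 and 0.057 and 0.24, 0.59 and 0.52 in PRMT1-KO.

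In TNFSF10 (a difference of 0.16 in PRMT1-KO), TNFSF4 (0.085), TNFRSF25 (-0.27), TNFRSF1A (-0.058), TNFRSF21 (0.050) and TNFRSF14 (0.17) the PRMT1-KO samples overlapped the isgCtrl samples.

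The difference between both effects was tested directly in a fit of all 12 samples, as MS023 minus DMSO against PRMT1-KO minus isgCtrl. The agents, the induction and the cell stocks differ between the arms, so the test compares the arms as they were run. Of 19 members tested, 9 differed at an adjusted p under 0.05, 8 with a more positive MS023 effect and 1 with a more negative one, beside 35.6% of all 13256 genes (14.4% and 21.2%). TNFRSF13B differed most, by 2.16 ± 0.14, followed by CD40 at 2.05 ± 0.15 (limma adjusted p = 3e-06 and 6.5e-06). TNFRSF10D (0.85), TNFSF9 (0.79), TNFRSF10B (0.78), TNFRSF8 (0.74), TNFRSF10A (0.62) and CD70 (0.40) also had the more positive effect with MS023, and TNFRSF21 (-0.50) the more negative one. TNFRSF8 entered this test only through its MS023 mean, the group in which it was high. TNFRSF11A, which was not called, entered only through its PRMT1-KO mean (1.11). TNFRSF14, called with MS023, missed the threshold here (0.37, limma adjusted p = 0.0704).

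The control groups also differed from each other, with CD40 and TNFRSF13B among the members called. The isgCtrl and MS023 groups were both compared with the same DMSO samples, and Cas9, the guide, doxycycline, the vehicle and the cell stock cannot be told apart between isgCtrl and DMSO. Of 17 members tested, 7 were called, 3 higher and 4 lower in isgCtrl, beside 13.9% of all 12661 genes (7.23% and 6.7%). At any fold 14 passed the adjusted p, beside 34.5%, and the samples of 15 did not overlap, beside 51.7%. CD40 fell from 1.32, 1.03 and 1.34 in DMSO to 0.14, 0.26 and 0.049 in isgCtrl, and TNFRSF13B from a mean of 3.69 ± 0.20 to 2.07 ± 0.12. Neither gene overlapped between the groups, and the differences were -1.09 ± 0.11 and -1.62 ± 0.12 (limma adjusted p = 0.0018 and 0.00082). For CD40 the values side by side were thus 1.23 ± 0.17 in DMSO, 3.19 ± 0.16 with MS023, 0.15 ± 0.10 in isgCtrl and 0.061 ± 0.063 in PRMT1-KO, so that the PRMT1-KO comparison of CD40 began from a level near 0. For TNFRSF13B they were 3.69 ± 0.20, 5.43 ± 0.061, 2.07 ± 0.12 and 1.64 ± 0.044.

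TNFRSF10B was also lower in isgCtrl (-0.62, limma adjusted p = 0.00329), and it and CD40 were tested only through their DMSO means. TNFRSF14 was lower by a difference of -0.50 (adjusted p = 0.0188), a call that was lost when DMSO replicate 1 (0.0557), DMSO replicate 3 (0.0547) or isgCtrl replicate 3 (0.0601) was left out, with the adjusted p in parentheses, and also without isgCtrl replicate 1, where the difference was -0.41. TNFRSF1B was higher in isgCtrl, at 6.55, 6.58 and 6.65, by 0.69 ± 0.10 (adjusted p = 0.00569), so this receptor was highest in the Cas9 lines and lowest with MS023. TNFRSF25 (0.54) and TNFSF4 (0.53) were called higher by limma as well (adjusted p = 0.0115 and 0.0113), but median-ratio scaling took both under the fold threshold (0.45 and 0.47) and changed the split of member calls to 1 higher and 5 lower. That scaling also moved the calls of all genes from 915 higher and 848 lower to 546 and 1052. TNFRSF25 further lost its call with quantile normalization (0.46) and without isgCtrl replicate 2 (0.44), and TNFSF4 without DMSO replicate 2 (0.47) or isgCtrl replicate 1 (0.45). Without DMSO replicate 3, TNFRSF12A was called lower in isgCtrl (-0.91). The others were TNFRSF1A at -0.47, TNFRSF10D at 0.42, TNFRSF10A at -0.35, TNFSF10 at -0.33, TNFRSF18 at 0.30, CD70 at -0.28, TNFSF9 at -0.22, FAS at 0.18 and TNFRSF21 at -0.083, none of them past the fold threshold. Of these, TNFRSF1A was called lower with median-ratio scaling (-0.55), quantile normalization (-0.54), a pseudocount of 0.1 (-0.51), without DMSO replicate 3 (-0.54) and without isgCtrl replicate 2 (-0.52). TNFRSF10D was called higher with a pseudocount of 0.1 (0.66) and quantile normalization (0.50).

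The order of levels among the 40 members was led by CD70 in every group, with mean TPM of 257 in DMSO, 372 with MS023, 212 in isgCtrl and 232 in PRMT1-KO. TNFRSF1B followed in all groups but MS023, where TNFSF9 stood between them. In DMSO cells FAS and TNFSF9 overlapped at rank 3 and rank 4. There TNFRSF18, TNFRSF25, TNFRSF1A, TNFRSF13B, TNFRSF12A and TNFRSF10A also overlapped from neighbour to neighbour at ranks 6 to 11. CD70 and TNFRSF1B were separated from the next member in DMSO, isgCtrl and PRMT1-KO. On the chromosomes, 23 of the 40 members form 9 groups with gaps of at most 200000 bp. Within them TNFSF9 and CD70 on chromosome 19 both rose with MS023 beside a low TNFSF14, whereas on chromosome 1 TNFRSF8 rose beside TNFRSF1B, which did not.

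Genes that carry signals from these receptors were described from lists by role. Of 24 receptor-proximal adaptors and kinases 23 were tested with MS023, and 5 rose and 1 fell, with a median of 0.12. CFLAR, which restrains CASP8 at death receptors, rose by 1.32 ± 0.065, the adaptor TRAF1 by 1.30 ± 0.085 and RIPK3, the kinase of necroptosis, by 0.85 ± 0.084 (limma adjusted p = 8.3e-05, 0.000173 and 0.000642). IKBKB, a kinase that activates NF-kB, fell by 0.61 (adjusted p = 0.00404). RIPK3 was tested only through its MS023 mean. Of 10 linear ubiquitin and deubiquitinase regulators 2 rose and 0 fell (median 0.15), namely TNIP2 by 1.19 and TNIP1 by 0.66, which encode binding partners of TNFAIP3. Of 7 tested genes for ligand and receptor processing RHBDF2, a regulator of ADAM17, rose by 0.69, none fell, and the median was -0.014. Among 3 tested superfamily relatives outside the rule RELL2 rose by 0.75, none fell, and the median was 0.19.

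Among 20 NF-kB target genes 17 were tested, of which 7 rose and 3 fell with a median of 0.19. The chemokine genes CXCL10 (3.15 ± 0.060), CCL4 (2.96 ± 0.092) and CCL3 (2.05 ± 0.067) rose most (limma adjusted p = 1.1e-05, 5.2e-05 and 5.2e-05), and CXCL10 is also known as an interferon-induced gene. PTGS2, the inducible cyclooxygenase and also among the 7, was tested only through its MS023 mean (0.33 in DMSO, 1.49 with MS023). SOD2, a mitochondrial antioxidant enzyme, fell by 0.69, TNFAIP8 by 0.59 and NFKB1, a subunit of NF-kB, by 0.49. Beside them 11.6% of all genes tested were higher and 19.3% lower, with a median of -0.11. In PRMT1-KO none of the genes in the 5 lists was called, with 22 adaptors, 10 ubiquitin regulators, 8 processing genes, 4 relatives and 14 NF-kB targets tested, and at an unadjusted p under 0.05 there were 2, 2, 1, 1 and 2, beside 18.6% of all genes tested. At an adjusted p under 0.05 and any fold CCL3 passed there, at a difference of 0.42 (limma adjusted p = 0.0296), beside 1.28% of all genes.

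**Figure D4:**
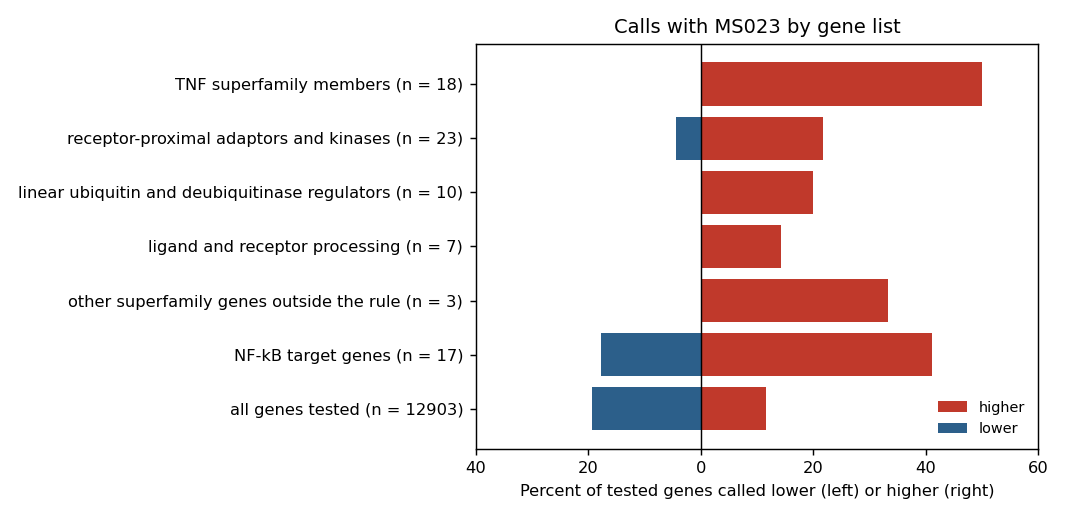
Share of tested genes called higher (red, right of 0) and lower (blue, left of 0) with MS023 against DMSO, in percent, for the family, for 5 lists of related genes and for all genes tested, with the number tested in parentheses. The family bar reaches 50.0% on the right with none on the left, and the bar of all genes is longer on the left, at 19.3%, than on the right, at 11.6%.

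Markers of cell identity moved in the same samples. With MS023, 6 of 10 plasma cell markers were called higher and CD38 lower, beside 11.6% and 19.3% of all genes tested, with SLAMF7 up by 2.37 and XBP1, the plasma cell secretory regulator, by 1.15 (limma adjusted p = 5.5e-05 and 8.5e-05). Their summed level was 5626 to 5848 TPM in DMSO, 11798 to 12158 with MS023, 2806 to 2871 for isgCtrl and 3027 to 3203 for PRMT1-KO. JCHAIN made up most of each sum, at a mean of 12.24 in DMSO, 13.36 with MS023, 10.95 in isgCtrl and 11.13 in PRMT1-KO. T cell and NK cell markers summed to 0.730 to 0.919 TPM in DMSO and 2.79 to 3.86 with MS023, where GZMB (0.096 in DMSO, 1.68 with MS023) was called after passing the filter only through its MS023 mean. Of the other T cell markers TRAC stood at 0.22 in DMSO and 0.52 with MS023 and CD3E at 0.39 and 0.45, while CD3G was listed at 0 in every group. Myeloid markers summed to 0.908 to 2.10 and 4.51 to 10.7 TPM, where CD68, a lysosomal protein, was called (1.16 and 2.73) and CD14 stood at 0.34 and 0.55. B cell markers summed to 30.5 to 39.6 and 41.6 to 46.2 TPM, nearly all from CD79B. CD79A stood at 0.43 and 0.49 and MS4A1 at 0.17 and 0.14, while CD22 was listed at 0 in every group. The part of these shifts in the changes of CD40, TNFRSF13B and the other members was not tested.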

How the data were processed

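The authors deposited 1 table of gene-level log2(TPM+1) values for the 12 samples, with a pseudocount of 1, and these log2 values were analysed unchanged. By the methods and the submitters' processing notes, reads were checked with FastQC, trimmed with Trimmomatic, aligned with STAR in two-pass mode and quantified with Salmon on hg38 with GENCODE V35. Tool versions and strand settings are not given in the sources used here. TPM keeps no depth, so no count model was used. The table held 0 columns of other samples.

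Groups and replicate numbers came from the labels. Linear models of limma 3.58.1 (R 4.3.3; eBayes, no trend) were fitted to the 6 samples of each comparison over all genes with a group mean above 1, with Benjamini-Hochberg adjustment over all of them. Calls needed an adjusted p below 0.05 and a log2 fold change beyond 0.48 in either direction, thresholds of the study's methods. The study reported far fewer differentially expressed genes with MS023 than the 3986 called here. Its count for PRMT1-KO was close to the 96 called here. The reason for the gap with MS023 was not tested. The difference of both effects was fitted on 12 samples with the adjusted p alone. Fold changes on the log2(TPM+1) scale understate those of low genes. The fits were tested on simulated data with changes of known size planted in some genes. The members and gene lists were chosen with earlier results of these data known. Every member is accounted for, and in each list the genes named are the 3 called genes with the largest rise and the 3 with the largest fall with MS023, every called gene in PRMT1-KO, and PRMT1. Markers, CD40LG, PTGS2 and overlapping or neighbouring genes were named after their values were seen. Gene positions are those of GENCODE v44 on GRCh38, and promoters those of RefSeq on GRCh38.p14.

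Alternatives were a pseudocount of 0.1, no filter on low values, a filter on every sample, quantile normalization, median-ratio scaling, a trend in eBayes, a replicate block, all 12 samples in 1 fit, another fold threshold and each replicate left out. Whether numbers pair samples was checked by correlating deviations from group means.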

Additional observations from a re-analysis of the deposited data

Results flagged for a closer look

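For 9 members the effect of MS023 and the effect of PRMT1-KO differed from each other by the limma test of the difference itself, in the fit of 12 samples with Benjamini-Hochberg adjustment. The difference, MS023 effect minus PRMT1-KO effect on the log2(TPM+1) scale, was 2.16 for TNFRSF13B, 2.05 for CD40, 0.85 for TNFRSF10D and 0.79 for TNFSF9. It was 0.78 for TNFRSF10B, 0.74 for TNFRSF8, 0.62 for TNFRSF10A and 0.40 for CD70. For TNFRSF21 it was -0.50. TNFRSF13B rose by 1.74 with MS023 and was lower in every PRMT1-KO sample than in any isgCtrl sample, by a difference of -0.42 (limma adjusted p = 0.0698). CD40 and TNFRSF8 had a mean below 1 in both Cas9 groups, so their PRMT1-KO effect was read at levels of 0.59 or less. Only the MS023 mean of TNFRSF8 exceeded 1, so it was tested through the group in which it was high.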

How the results depend on the processing

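With MS023 the member calls stayed at 9 higher under median-ratio scaling, quantile normalization, the trend, the replicate block and the fit of 12 samples, and at 8 with the filter on every sample. A pseudocount of 0.1 gave 9 higher and 1 lower (TNFRSF21, -0.84). Without a fold threshold, isgCtrl against DMSO gave 14 calls in place of 7 and PRMT1-KO against isgCtrl 1 in place of 0. The difference of both effects gave 5 calls in place of 9 with the filter on every sample, which left 14 members. Leaving out 1 replicate gave 9 to 10 calls with MS023, 0 to 0 in PRMT1-KO, 5 to 8 in isgCtrl and 9 to 10 for the difference. The PRMT1-KO calls over all genes fell from 96 to between 2 and 21 on leaving out 1 replicate and to 0 with the replicate block.

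Replicate numbers come from the sample titles and were not taken to pair samples: deviations of same-numbered samples correlated at 0.022 to 0.097 for MS023 and DMSO, -0.15 to 0.066 for PRMT1-KO and isgCtrl and -0.21 to -0.040 for isgCtrl and DMSO. The replicate block gave 9, 0, 6 and 9 member calls in the 4 comparisons, and the call lost was TNFRSF14 in isgCtrl (adjusted p = 0.0540).

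Over 950 single results under alternatives 890 kept direction and call, 14 lost a call, 22 gained one and 24 changed sign. Signs changed with median-ratio scaling for TNFRSF1A (0.055) and FAS (0.12) and with quantile normalization for TNFRSF1A (0.064) and FAS (0.070) with MS023, and for TNFRSF21 in isgCtrl (0.014). On leaving out 1 replicate the MS023 differences ran from -0.024 to 0.10 for TNFSF4, -0.16 to 0.74 for TNFRSF12A, -0.057 to 0.21 for TNFSF10 and -0.040 to 0.012 for FAS. The PRMT1-KO differences ran from -0.049 to 0.085 for TNFRSF10A, -0.019 to 0.13 for TNFRSF21, -0.047 to 0.045 for FAS, -0.026 to 0.093 for TNFRSF10D, -0.40 to 0.16 for TNFRSF12A and -0.23 to 0.092 for TNFRSF1A. In the difference of both effects TNFRSF8 lost its call with a pseudocount of 0.1 (limma adjusted p = 0.0720) and TNFRSF21 with the trend (0.0621), and the cause was not tested. CD70 (0.40) lost its call there when an absolute difference above 0.48 was also required.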
